A study of Homo sapiens with 12 samples.

Results

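The replicative helicase is the motor that opens DNA ahead of the copying enzymes. The 10 genes described here encode its ring subunits MCM2, MCM3, MCM4, MCM5, MCM6 and MCM7 and 4 factors that load it onto DNA or switch it on, CDT1, CDC45, GINS2 and MCM10. They were chosen by name, and all 10 were found among the 63086 genes of the deposited table and passed the filter on low values. Their levels were compared across 4 lines of MIA PaCa-2, a human cell line from a pancreatic carcinoma, to ask how the RNA of the DNA replication machinery stood in cells with an edited TIMP1, which encodes a secreted inhibitor of metalloproteinases.

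In the first part of the cell cycle, the origin recognition complex, CDC6 and CDT1 place pairs of MCM rings around DNA, a step called licensing. At the start of S phase, when DNA is copied, CDC45 and the GINS complex (GINS1, GINS2, GINS3 and GINS4) join each ring to form the active helicase, and MCM10 helps it to begin unwinding. These genes are known targets of E2F transcription factors and are transcribed most in cells that enter S phase, so their RNA is widely read as a mark of proliferating cells.

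Bulk RNA sequencing covered 3 libraries of each line, all from cells grown in RPMI medium with fetal calf serum and collected at 70% confluency. WT was not edited. CRISPR Control had passed through CRISPR-Cas9 editing and carried a silent point mutation that left the protein as it was, whereas TIMP1 KO 1 and TIMP1 KO 2 were edited in exon 4 of TIMP1 with guide RNAs to different places in that exon. The study reported a frame-shift mutation in both KO lines from Sanger sequencing. Each edited line is 1 clone, so a difference between lines can also be a difference between clones, and the p-values below measure the spread between libraries of a line. WT and CRISPR Control are together called competent, and KO 1 and KO 2 deficient.

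The libraries held 26908701 to 36093563 reads in genes, and each of the 10 genes held between 413 and 19863 reads per library. TIMP1 RNA, the check on the labels, was 3837, 3290.2 and 3532 normalized counts in WT, 2285, 2826 and 2959 in CRISPR Control, 1562, 1624 and 1613 in KO 1 and 1136, 1192 and 1155 in KO 2. All deficient libraries lay below the competent ones, and RNA remained in each of them. Of the markers listed for the line, KRT8, KRT18 and VIM were abundant and CDKN2A was listed at 0 in every library, but CDH1 and EPCAM, listed as absent or low, averaged 1189 and 1889.8 normalized counts in WT. CDH1 averaged 128 in KO 1 and 84.9 in KO 2. KRT8 held 122928 to 138359 in WT but 34968 to 45063 in CRISPR Control, with 134219 to 137428 in KO 1 and 91072 to 100662 in KO 2. KRT18 likewise held 51793 to 58247 in WT and 14596 to 19068 in CRISPR Control, with 54427 to 57158 in KO 1 and 34363 to 36502 in KO 2. Among markers of other cell types, PTPRC, CD3E and LYZ of immune cells, PECAM1 and CDH5 of endothelium and DCN and LUM of fibroblasts were at 17.2 normalized counts or less in every library, but others were not. The summed level of the 5 immune markers was 38.2 to 55.2 for WT and 38.5 to 40.6 for CRISPR Control, then 76.0 to 92.9 for KO 1 and 160 to 173 for KO 2, most of it CD14. The 4 endothelial markers summed to 133 to 145 for WT, 35.2 to 39.7 for CRISPR Control, 97.9 to 109 for KO 1 and 231 to 250 for KO 2, most of it KDR outside CRISPR Control. The 5 fibroblast markers summed to 991 to 1096 for WT and 1842 to 2188 for CRISPR Control, with 1037 to 1125 for KO 1 and 1940.2 to 2056 for KO 2, most of it THY1, and PDGFRA stood at 272 to 305 in KO 2 and at 26.0 or less in the other lines. The part of these markers in the results was not tested.

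Because E2F factors are the known regulators of this group, their promoter letters are shown first. RefSeq windows on GRCh38.p14, from 250 bases before to 50 bases after an annotated start, were given for 8 of the 10 genes, all but MCM4 and MCM5. They were searched on both strands for TTTGGCG, core letters of many E2F sites, for the related TTTCGCG (seen in MCM7 below) and for TTTCCCG (seen in MCM3). All 8 genes had a match in at least 1 window, against 13.8% of the 10822 tested genes with a window, and 7.21% of all 35116 windows held one. These 7-letter forms were chosen after the windows of these genes had been read, so the count of 8 is no independent evidence. The form planned earlier had 8 letters, each of those or TTTGCCG followed by a C. It was found in 6 of the 8 genes, not in MCM10 or CDC45, against 6.52% of tested genes. In MCM2 and MCM10 the matches lay only after the start and are not printed. A further match of MCM3, which begins 4 bases before the start and runs across it, is not printed either. The stretches below, the match nearest the start for MCM7 and both places for MCM6, run 5′ to 3′ on the strand of the gene, and capitals mark the matched letters, in which a run longer than 7 bases holds overlapping or adjoining matches.
MCM3, 174 bases before the start, chr6:52284890-52284936: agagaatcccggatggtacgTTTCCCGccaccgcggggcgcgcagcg
MCM6, 152 bases before the start, chr2:135876564-135876615: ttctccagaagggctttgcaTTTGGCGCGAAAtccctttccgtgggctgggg
MCM6, 90 bases before the start, chr2:135876502-135876553: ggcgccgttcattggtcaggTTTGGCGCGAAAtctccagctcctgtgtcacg
MCM7, 9 bases before the start, chr7:100101398-100101426: cggtcacgtggggggcgacgTTTCGCGcc
CDT1, 34 bases before the start, chr16:88803735-88803788: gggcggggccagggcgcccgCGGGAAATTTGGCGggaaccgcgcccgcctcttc
CDC45, 25 bases before the start, chr22:19479884-19479912: aggagccgtgaTTTGGCGggagtcttgac
GINS2, 30 bases before the start, chr16:85688958-85689004: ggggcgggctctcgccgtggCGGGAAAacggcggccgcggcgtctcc

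The stretches of MCM3, MCM6 and CDT1 lie outside annotated genes, that of GINS2 is intronic to a longer GINS2 transcript, and those of MCM7 and CDC45 overlap exons of other transcripts of the same gene. MCM6 carried the same 12 letters at both places. Matches to CCAAT, the box bound by NF-Y, were found in 6 of the 8 genes, against 42.5% of tested genes. TTTGAA, the CHR element of genes expressed late in the cell cycle, was found in 0 of the 8, against 13.3% of tested genes. A match is a run of letters and not a measured binding site.

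The genes lie on 8 chromosomes (positions of GRCh38 from GENCODE v44). MCM2 lies at chr3:127598410-127622436 (+), MCM3 at chr6:52264014-52284881 (-), MCM4 at chr8:47960185-47978160 (+), MCM5 at chr22:35400134-35425431 (+), MCM6 at chr2:135839626-135876443 (-) and MCM7 at chr7:100092233-100101940 (-). CDT1 lies at chr16:88803789-88809258 (+), CDC45 at chr22:19479457-19520612 (+), GINS2 at chr16:85676198-85690073 (-) and MCM10 at chr10:13161558-13211110 (+).

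RNA of all 10 helicase genes was lower in both deficient lines than in WT, and it was lower in KO 2 than in KO 1. KO 1 held between 48.4% (GINS2) and 62.1% (MCM4) of the WT level, and KO 2 between 31.5% (CDC45) and 46.1% (MCM4). In bulk RNA, fewer cells in S phase and less helicase RNA per cell cannot be told apart. The 6 ring genes together took 0.202% ± 0.0075 of the WT reads in genes (SD, n = 3, as for the other lines). CRISPR Control stood near WT with 0.183% ± 0.0052, KO 1 lower with 0.1204% ± 0.0031 and KO 2 lowest with 0.0812% ± 0.00085.

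MCM7 was the most abundant of the ring genes per length in every line. Its normalized counts were 20769, 18058 and 18907 in WT, 16532, 16573 and 18541 in CRISPR Control, 11415, 11777 and 12232 in KO 1 and 6210.3, 6617 and 6581 in KO 2. Competent libraries overlapped each other, whereas KO 1 lay below all of them and KO 2 below KO 1. The log2 fold change against WT was -0.70 ± 0.07 in KO 1 and -1.57 ± 0.07 in KO 2 (limma, estimate ± SE, adjusted p = 3.22e-07 and 1.99e-12).

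MCM3, through which the ring contacts the origin complex during loading, held 12419.9, 11029 and 11196 normalized counts in WT. It held 9928, 9683 and 10315 in CRISPR Control, 6771, 6736 and 6667 in KO 1 and 3894, 3793 and 4178 in KO 2. Here the 4 lines were fully apart, with CRISPR Control 0.21 below WT on the log2 scale (SE 0.07, limma adjusted p = 0.0131). MCM5, which with MCM2 forms the gate through which DNA enters the ring, held 7929.8, 6699 and 7173 in WT, 6777, 6529 and 7389 in CRISPR Control, 4154, 4222 and 4436 in KO 1 and 2534, 2799 and 2552 in KO 2. Its competent libraries overlapped and its deficient libraries lay below them.

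MCM2, which forms the other side of that gate and also carries histones at the fork, held 7617, 6867 and 7197 normalized counts in WT, 6469, 5632 and 6936 in CRISPR Control, 4354, 3789.6 and 4369 in KO 1 and 2649, 2547 and 2951 in KO 2. CRISPR Control reached into the range of WT, and the deficient lines did not. MCM4 and MCM6 form with MCM7 a subcomplex that can unwind DNA by itself. MCM4 held 12383, 12482 and 12741 in WT, 11956, 11907 and 11629 in CRISPR Control, 7629, 7760.4 and 7965 in KO 1 and 5945, 5640.4 and 5733 in KO 2. Its 4 lines were fully apart too. CRISPR Control against WT was nevertheless -0.08 ± 0.06 in log2 and did not pass the test (limma, adjusted p = 0.251). MCM6 held 6006, 5520.3 and 5722 in WT, 6009.9, 6236 and 6421 in CRISPR Control, 3292, 3457 and 3378 in KO 1 and 2382, 2379.6 and 2429.5 in KO 2. MCM6 was thus the ring gene whose CRISPR Control libraries all lay above WT, by a log2 fold change of 0.11 that did not pass the test (SE 0.06, limma adjusted p = 0.135).

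CDT1, the loader that brings the MCM ring to the origin complex, held 2527, 2206 and 2497 normalized counts in WT, 1864, 2038 and 2647 in CRISPR Control, 1437, 1316 and 1448 in KO 1 and 973, 1135 and 1221 in KO 2. Its deficient libraries were all below its competent ones, but the 3 CRISPR Control libraries spread more widely than those of any other line. GINS2 held 1388, 1193 and 1194 in WT, 1246, 1435 and 1560.4 in CRISPR Control, 564, 611 and 652 in KO 1 and 418, 362 and 424 in KO 2. GINS2 had the largest difference of the 10 genes between deficient and competent lines, at -1.43 ± 0.07 in log2 (limma, adjusted p = 2.8e-12).

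MCM10 held 1924, 1951 and 1904 normalized counts in WT, 1493, 1376 and 1451 in CRISPR Control, 1156, 1068 and 1261 in KO 1 and 906, 852 and 782 in KO 2. It fell in steps from WT through CRISPR Control and KO 1 to KO 2, with no overlap between lines. CDC45 held 2975, 2611 and 2517 in WT, 1514, 1574 and 1593 in CRISPR Control, 1603, 1576 and 1536 in KO 1 and 840.0, 843 and 871 in KO 2. It was the exception of the group, since CRISPR Control and KO 1 occupied the same range.

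**Figure D1:**
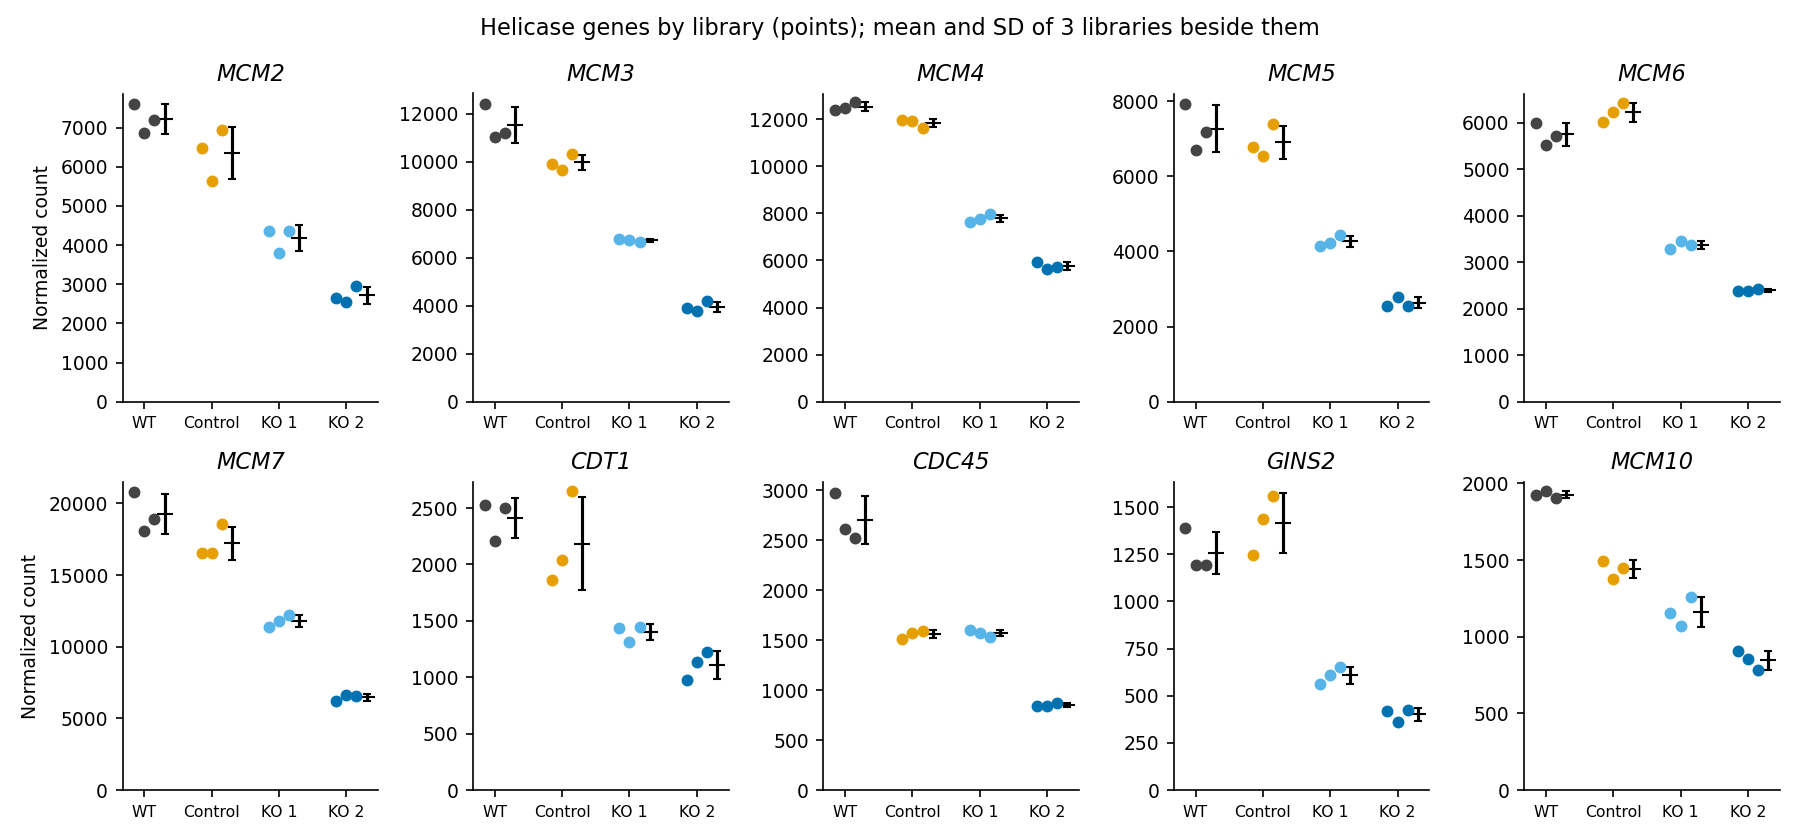
Normalized counts of the 10 helicase genes (vertical axes, each starting at 0) in WT, CRISPR Control, KO 1 and KO 2 (horizontal axes). Each point is a library and the bars beside the points are the mean and SD of 3 libraries. KO 2 lies lowest in every panel, and for CDC45 the CRISPR Control and KO 1 points overlap, with means of 1560.5 and 1572.

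Against WT, all 10 genes were called lower in KO 1 (limma, Benjamini-Hochberg adjusted p under 0.05 over 15987 tested genes), where 17.5% of all tested genes were called lower. The log2 fold changes ran from -1.04 for GINS2 to -0.69 for MCM4 with a median of -0.77, while the median of all tested genes was 0.00. All 10 were also called lower in KO 2, against 27.9% of tested genes. There they ran from -1.66 for CDC45 to -1.12 for MCM4, with a median of -1.44 and a median of all genes of -0.01. Both comparisons used the same WT libraries. Few tested genes fell further against WT. The share with a lower log2 fold change than the helicase gene was 1.65% to 3.76% in KO 2 and 4.04% to 6.71% in KO 1. Against CRISPR Control that share was larger. It ran from 3.62% (GINS2) to 14.5% (MCM10) in KO 2 and from 7.36% (GINS2) to 50.9% (CDC45) in KO 1.

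**Figure D2:**
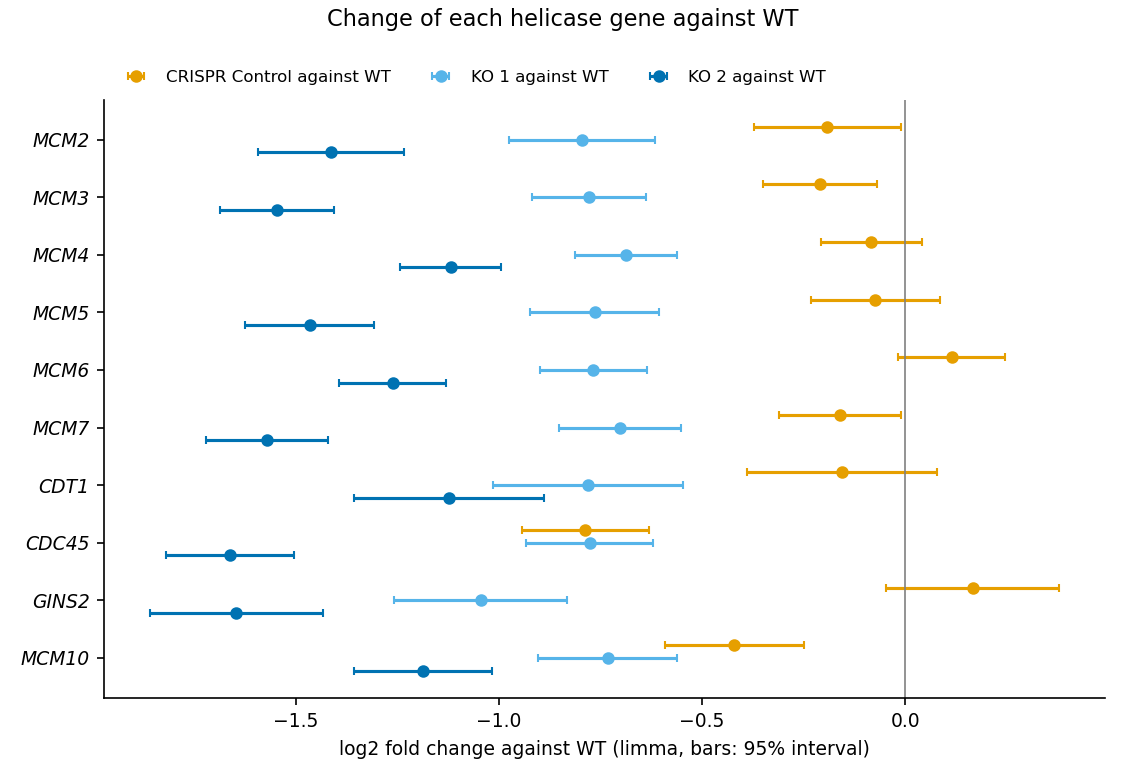
Log2 fold change against WT (horizontal axis) of each helicase gene (vertical axis) in CRISPR Control, KO 1 and KO 2, as limma estimates with 95% intervals. All KO 1 and KO 2 intervals lie below 0. For CDC45 the CRISPR Control value of -0.79 sits beside the KO 1 value of -0.78.

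The edited control line matters for reading these values, because CRISPR Control itself differed from WT in 53.4% of tested genes. Of the 10 helicase genes, MCM3, MCM10 and CDC45 were called lower in CRISPR Control than in WT, a share close to the 26.3% of all tested genes called lower. Their log2 fold changes were -0.21, -0.42 and -0.79 (limma, adjusted p = 0.0131, 0.000261 and 5.62e-08). For the other 7 the value ran from -0.19 for MCM2 to 0.17 for GINS2 and did not pass the test, and the 95% intervals of those changes reached from -0.39 (CDT1) to 0.38 (GINS2). This count moved with the processing and with single libraries. It was 5 with scaling to equal library totals, TMM scaling or edgeR, 6 without CRISPR Control replicate 3 and 2 without WT replicate 1.

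With CRISPR Control as the reference, 9 of 10 genes were called lower in KO 1 (31.3% of tested genes) and 10 of 10 in KO 2 (34.4%). CDC45 did not differ beyond its spread between KO 1 and CRISPR Control, with a log2 difference of 0.01 and a 95% interval from -0.15 to 0.17 (limma, adjusted p = 0.912). Its level in KO 2 was below both, with a log2 difference of -0.87 ± 0.07 from CRISPR Control (limma, adjusted p = 5.74e-09). MCM10 lay 0.31 below CRISPR Control in KO 1 on the log2 scale (SE 0.08, limma adjusted p = 0.00256), where GINS2 lay 1.21 and MCM6 0.88 below it (SE 0.10 and 0.06, adjusted p = 5.38e-09 and 5.07e-10).

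Between deficient and competent lines, all 10 genes were called lower, against 33.0% of tested genes, and 6 of them had a log2 fold change of -1 or below, which 5.50% of tested genes did. The median was -1.03, with the ring genes from -1.08 (MCM5) to -0.86 (MCM4). For 9 of the 10 genes, all but CDC45, the 6 deficient libraries lay below all 6 competent libraries, as they did for 12.4% of tested genes. The 9 were also called lower in both deficient lines than in each competent line, which held for 9.50% of tested genes. Lower in both knockouts than in WT with no call in CRISPR Control, the kind of overlap the study used to define TIMP1-dependent genes, described 7 of the 10 (MCM2, MCM4, MCM5, MCM6, MCM7, GINS2 and CDT1) and 5.18% of tested genes. That count rests on which genes were called in CRISPR Control against WT. When single libraries were left out, 2 to 6 of the 10 were called there. Leaving out the CRISPR Control line gave log2 fold changes of -1.35 to -0.90, and leaving out WT gave -1.51 to -0.43, the last of these for CDC45. All 10 genes stayed past the threshold either way.

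The deficient lines were not alike. All 10 genes were called lower in KO 2 than in KO 1, against 20.1% of tested genes, by log2 fold changes from -0.88 (CDC45) to -0.34 (CDT1) with a median of -0.61, and every KO 2 library lay below every KO 1 library for all 10, as it did for 28.0% of tested genes. MCM7 and MCM3 followed CDC45 with -0.87 ± 0.07 and -0.77 ± 0.07 (limma, adjusted p = 2.00e-08 and 4.13e-08). The smallest difference, that of CDT1, had an SE of 0.11 and an adjusted p of 0.0213 in limma, and was lost without KO 1 replicate 1 or 3 or KO 2 replicate 1, and with scaling to equal library totals. TIMP1 RNA differed in the same direction, by -0.46 on the log2 scale.

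Within a library, each gene was also set against the mean log2 level of the ring genes, leaving out its own, a measure that does not depend on the scaling between libraries. MCM2 and MCM5 kept nearly the same place in all 4 lines, with line means from -0.62 to -0.51 for MCM2 and from -0.59 to -0.47 for MCM5. MCM4 stood at 0.44 ± 0.10 for WT (log2, SD, n = 3), 0.46 ± 0.10 for CRISPR Control and 0.52 ± 0.02 for KO 1, but at 0.78 ± 0.07 for KO 2. MCM7 stood lower in KO 2, at 0.97 ± 0.05, than in WT, CRISPR Control and KO 1, at 1.18 ± 0.04, 1.11 ± 0.05 and 1.24 ± 0.04.

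The balance of the activating factors differed more between lines. CDC45 stood at -1.85 ± 0.08 beside the ring genes in WT, -1.88 ± 0.06 in KO 1 and -2.11 ± 0.0030 in KO 2, but at -2.54 ± 0.06 in CRISPR Control. CRISPR Control was thus the line in which CDC45 was low beside a ring that was close to WT. GINS2 stood at -2.95 ± 0.06 in WT and -2.68 ± 0.14 in CRISPR Control, and at -3.25 ± 0.08 and -3.20 ± 0.12 in KO 1 and KO 2. MCM10 ran the other way in KO 2, at -2.12 ± 0.14 against -2.33 ± 0.08 in WT and -2.65 ± 0.06 in CRISPR Control. KO 1 stood near WT at -2.32 ± 0.09, and the KO 2 libraries overlapped those of WT and KO 1. CDT1 was also higher in KO 2, at -1.74 ± 0.14. In WT, CRISPR Control and KO 1 it stood at -2.01 ± 0.06, -2.07 ± 0.21 and -2.04 ± 0.06. For CDT1 the KO 2 libraries overlapped those of CRISPR Control. With 3 libraries a line, an exact permutation test between lines cannot pass the threshold, and none was run on these levels.

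**Figure D3:**
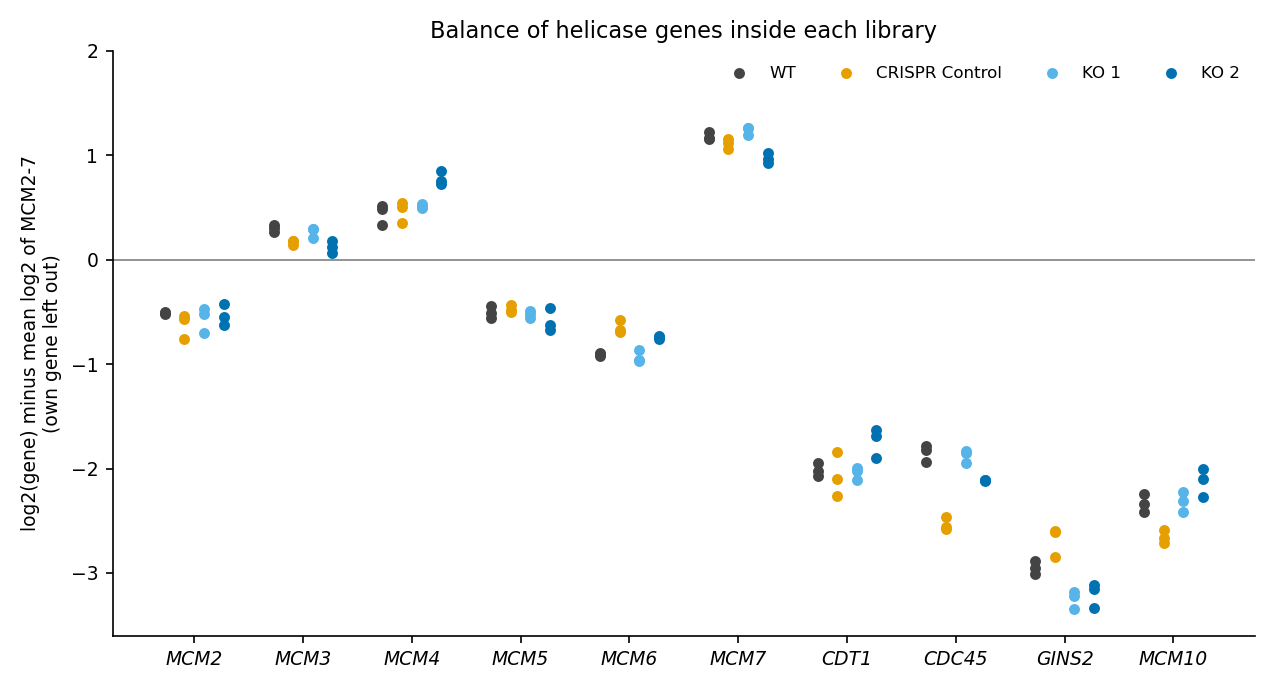
Log2 level of each helicase gene minus the mean log2 level of the ring genes other than itself (vertical axis) in each of 12 libraries, by gene (horizontal axis) and line (color). CDC45 is lowest in CRISPR Control, around -2.54, and GINS2 lies lower in KO 1 and KO 2, around -3.25 and -3.20, than in WT and CRISPR Control.

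Per kilobase of annotated exons, the WT levels of the ring genes ran from 1000 for MCM5 to 3880 normalized counts for MCM7, a ratio of 3.88, although the proteins occur once each in the ring. MCM7 came first and MCM5 last in all 4 lines, and MCM3 second. MCM2, MCM6 and MCM4 lay between them at 1533, 1390 and 1272 in WT. The order below MCM7 depended on which exons were counted: with the length of the canonical transcript, MCM6 was last in every line, and MCM4 passed MCM3 in KO 2. Among the other factors, CDC45 stood at 907 and CDT1 at 873 in WT, and GINS2 and MCM10 at 391 and 353.

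CDT1 is held in check by geminin, encoded by GMNN, which binds it after S phase has begun and so prevents a second licensing. GMNN held 2229.8, 2387 and 2029 normalized counts in WT, 1628, 2074 and 1636 in CRISPR Control, 1735, 1701 and 1629 in KO 1 and 1148, 1049 and 1147 in KO 2. Deficient lines differed from competent ones by -0.53 on the log2 scale (limma, adjusted p = 9.61e-07), smaller than the -0.87 of CDT1. The log2 level of CDT1 minus that of GMNN was 0.12 ± 0.21 for WT (SD, n = 3) and 0.29 ± 0.37 for CRISPR Control, against -0.27 ± 0.10 for KO 1 and -0.01 ± 0.20 for KO 2. The deficient libraries were lower by 0.35 on average (two-sided exact permutation test over 12 libraries, p = 0.0303, smallest possible 0.00216), but the groups overlapped, from -0.37 to 0.11 against -0.11 to 0.69. Libraries of 1 line are not separate lines, and leaving out single libraries moved p to between 0.0519 and 0.0649 in 6 of 12 cases.

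Lists of genes that act with the helicase are given by their counts between deficient and competent lines, where 33.0% of all tested genes were called lower. Of 10 other licensing genes, 9 were called lower and 1 higher, with a median log2 fold change of -0.47. CDC6, which loads MCM rings together with CDT1, and ORC6, a subunit of the origin recognition complex, changed most, at -1.05 and -1.04 (limma, adjusted p = 8.04e-13 and 5.32e-11), and ORC4 of the same complex was higher by 0.18 (adjusted p = 0.00954). In KO 1 against WT, 6 of the 10 were lower, beside 17.5% of all tested genes, and in KO 2 against WT 9, beside 27.9%.

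All 12 genes of origin firing were lower between deficient and competent lines, with a median of -0.60, including TICRR, which brings CDC45 to the ring, at -0.94, and GINS4, a partner of GINS2, at -0.84 (limma, adjusted p = 9.62e-09 and 5.5e-09). Of 24 polymerase, clamp and Okazaki fragment genes, 23 were lower with a median of -0.58. DNA2, a nuclease that trims Okazaki fragments, led them at -0.997, and POLD4, the small subunit of polymerase delta, was the exception at 1.14 (adjusted p = 8.17e-11 and 4.55e-09). POLD4 stood at 366 and 253 normalized counts in WT and CRISPR Control and at 642 and 713 in KO 1 and KO 2.

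Of 10 genes of fork protection and the S phase checkpoint, 9 were lower with a median of -0.38, led by CLSPN, which links the helicase to the checkpoint, at -0.93, and ATRIP, the partner of ATR, at -0.75. ATR itself did not pass the test (0.09, limma adjusted p = 0.201). CDT1 is destroyed in S phase by the ubiquitin ligases CRL4-CDT2 and SCF-SKP2. Of 8 genes of these ligases, 5 were lower and 1 higher with a median of -0.30 (33.0% of all tested genes were lower), with SKP2 at -0.78, CUL4A at -0.62 and CUL4B at 0.19. CUL4A also stood 0.74 above WT in CRISPR Control (limma, adjusted p = 8.99e-09).

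Genes that take the helicase off DNA after copying gave no common direction. Of 10, 5 were lower, 2 higher and 3 not called, with a median of -0.14, beside the 33.0% of all tested genes called lower. TRAIP, a ligase that acts on stalled helicases, was at -1.16 and FAF1, a cofactor of the unloading enzyme VCP, at -0.49, whereas ELOB and CUL2, parts of the ligase that marks MCM7 at termination, were higher at 0.46 and 0.15 (limma, adjusted p = 6.35e-10, 6.74e-08, 3.62e-05 and 0.0157). MCM8 and MCM9, relatives of the ring genes that act in recombination rather than in the replicative helicase, changed by -0.40 and -0.17 (limma, adjusted p = 0.00091 and 0.0372), less than any of the 6 ring genes.

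The counts depended on which lines were compared, as CRISPR Control itself differed from WT. In KO 1 against CRISPR Control, 31.3% of all tested genes were called lower, and 9 of the 10 helicase genes were, with a median of -0.60. Of the 24 polymerase, clamp and Okazaki fragment genes, 11 were lower in CRISPR Control than in WT, beside 26.3% of all tested genes. In KO 1 against CRISPR Control, 15 were lower, 2 higher (LIG1 and POLD4) and 7 not called, with a median of -0.28. Of the origin firing genes 8 of 12 were lower with a median of -0.35, and of the licensing genes 6 of 10 with -0.31. Among the genes of fork protection and the checkpoint 8 of 10 were lower and 2 higher (TIMELESS and ATR), with a median of -0.37. The ligase genes for CDT1 had 5 of 8 lower with -0.22, and the unloading genes 3 lower and 3 higher of 10 with -0.04.

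**Figure D4:**
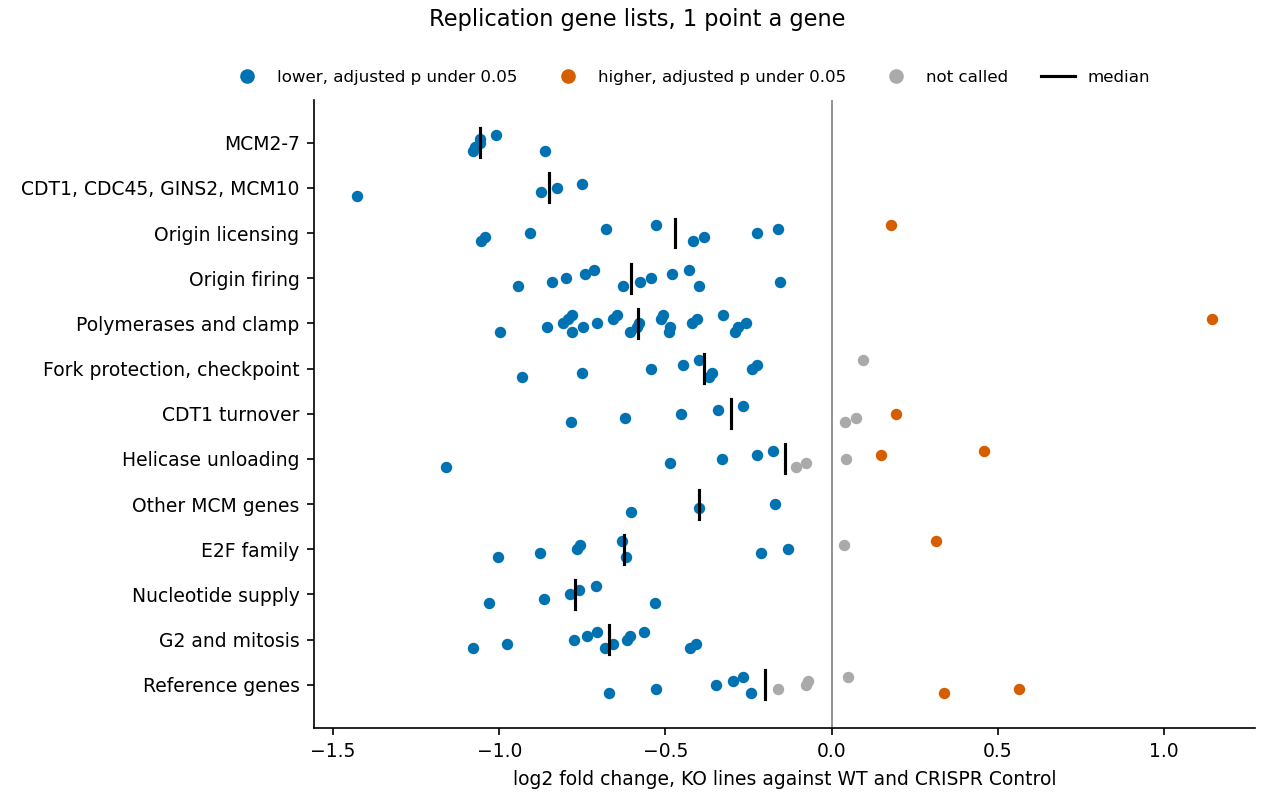
Log2 fold change of deficient against competent lines (horizontal axis) of each tested gene in 13 gene lists (vertical axis), 1 point a gene, with the list median as a black line. Blue points were called lower, orange points higher and grey points were not called by limma. The ring genes lie between -1.08 and -0.86, with a lower median than any other list shown.

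Transcription factors and proliferation genes were set beside the helicase because they are read in the same cells. Of 10 E2F and DP genes, 8 were lower and 1 higher between deficient and competent lines, with a median of -0.62. Of all tested genes, 33.0% were called lower there. In KO 1 against CRISPR Control, however, 4 of the 10 were lower, near the 31.3% of all tested genes. There 1 was higher (TFDP2) and 5 were not called, E2F2 and E2F8 among them, with a median of -0.19. E2F1, an activator of S phase genes, averaged 5517 normalized counts for WT and 4383 for CRISPR Control but 2874 for KO 1 and 2094 for KO 2, and deficient lines were -1.003 from competent ones in log2. E2F8 was at -0.88, and E2F7, which like E2F8 represses such genes, was higher at 0.31 (limma, adjusted p = 6.71e-11, 8.1e-09 and 0.000755). E2F7 rose in KO 2 against WT by 0.57 on the log2 scale and did not pass the test in KO 1 (-0.18, limma adjusted p = 0.176).

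Between deficient and competent lines, where 33.0% of all tested genes were called lower, all 6 genes of nucleotide supply were lower. Their median was -0.77, and TK1 was at -1.03. All 12 genes expressed in G2 and mitosis were lower too, with a median of -0.67, PLK1 at -1.08 and AURKB at -0.98 changing most. In KO 1 against WT, 6 of the 12 were called lower (17.5% of all tested genes) with a median of -0.20, while the helicase median was -0.77. In KO 1 against CRISPR Control 6 were lower (31.3% of all tested genes) and 1 higher (CENPF), also with a median of -0.20. In KO 2 against WT all 12 were lower (27.9% of all tested genes) with a median of -1.09, beside -1.44 for the helicase, and in KO 2 against KO 1 the medians were -0.87 and -0.61. The summed level of the 12 genes ran from 113997 to 114476 normalized counts for WT and 107675 to 114793 for CRISPR Control, then 94309 to 95368 for KO 1 and 50162 to 53119.8 for KO 2. Their part in the helicase result was not tested. Of 12 common reference genes, 6 were lower (33.0% of all tested genes) and 2 higher between deficient and competent lines with a median of -0.20, which became -0.35 in KO 2 against WT.

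Across the 12 libraries, the genes whose log2 level followed the mean standardized profile of the 10 helicase genes most closely were CDK2, the kinase of S phase entry, at a Pearson r of 0.994, ICMT, a methyltransferase of prenylated proteins, at 0.993, HASPIN, a mitotic histone kinase, at 0.992, TEAD2, a transcription factor, at 0.991, and EFHD1 at 0.990. All 12 libraries fall into 4 lines, so r mostly reflects 4 line means and is given as a description. Of the 11632 genes compared, 193 (1.66%) had an r over 0.95. CDK2 averaged 3533 ± 36.9 normalized counts for WT (SD, n = 3) and 3331 ± 22.6 for CRISPR Control, with 2506 ± 82.3 for KO 1 and 1888 ± 46.4 for KO 2.

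Neighbours on the chromosome were examined because a gained or lost chromosome segment in a clone would move them together. Tested genes within 1 Mb of a helicase gene had median log2 fold changes in deficient against competent lines from -0.28 (5 genes around MCM4) to 0.80 (11 genes around MCM5), where the helicase genes ran from -1.43 to -0.75. Around MCM2, MCM3, MCM6 and MCM10 the count of neighbours as low as the helicase gene was 0 of 14, 10, 10 and 11. Around MCM7 it was 2 of 65, around CDC45 2 of 36, around CDT1 4 of 42, and 1 each around MCM4, MCM5 and GINS2. The 10 neighbours of MCM3 had a median of -0.83 in CRISPR Control against WT, where MCM3 was at -0.21, and those of MCM10 -0.31, where MCM10 was at -0.42. The neighbours of CDC45 had -0.12, where CDC45 was at -0.79. In KO 2 against WT the medians of neighbours ran from -0.55 (MCM4) to 0.53 (MCM5), and the helicase genes from -1.66 to -1.12. Around MCM4 3 of 5 neighbours were called lower there and 1 higher, beside 27.9% of all tested genes called lower. Around MCM3, with a median of -0.26, 6 of 10 were lower and 2 higher. DNA copy number was not measured in these libraries.

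**Figure D5:**
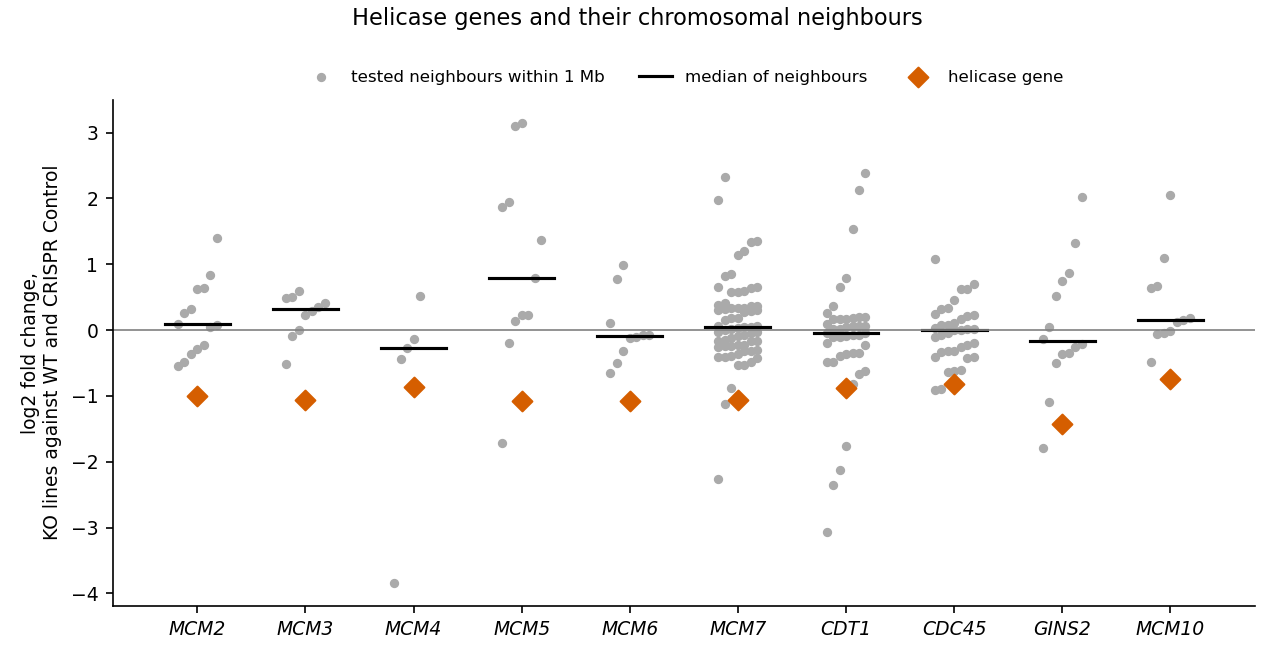
Log2 fold change of deficient against competent lines (vertical axis) of each helicase gene (orange diamonds) and of the tested genes within 1 Mb of it (grey points, black line for their median), by helicase gene (horizontal axis). The diamonds lie between -1.43 and -0.75, below the median of the neighbours at all 10 places.

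Some helicase genes share their start region or exons with another gene. PRKDC starts 805 bases from MCM4 on the other strand and changed by -0.43 between deficient and competent lines (limma, adjusted p = 2.52e-05), where MCM4 changed by -0.86. UFD1 starts 727 bases from CDC45 and changed by -0.08, which did not pass the test (adjusted p = 0.243). AP4M1 starts 246 bases from MCM7, overlaps it on the other strand and was higher by 0.16 (adjusted p = 0.0153). Against WT, however, AP4M1 stood at 0.03 in KO 1, -0.35 in KO 2 and -0.64 in CRISPR Control. GSE1 overlaps GINS2 on the other strand and changed by -0.34 (adjusted p = 4.16e-05). Whether the counting used strand is not given in the sources used here, so reads in those overlaps cannot be told apart. AP4M1 averaged 1368 and GSE1 2998 normalized counts over the 12 libraries.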

How the data were processed

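RNA of 12 MIA PaCa-2 libraries was sequenced, 3 of each of 4 lines, grouped by the sample titles. The authors trimmed reads with Cutadapt, mapped them to GRCh38 with STAR, counted them per gene with featureCounts and divided by a DESeq2 size factor, so the deposited signal is a normalized read count. Values were whole multiples of 1 read for 100% of positive values within 0.01 reads, which gave the depth and whole reads for edgeR (4.0.16) and DESeq2 (1.42.0). The 4 columns of line means were not used, and 1 blank line was left out.

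Tests used limma (3.58.1, R 4.3.3) on log2(normalized count + 1) for 15987 genes with a mean of at least 10, with 1 mean per line, a trend, two-sided p-values and Benjamini-Hochberg adjustment at 0.05. Log2 fold changes understate the change of low genes. The scaling sets typical genes equal between libraries. The method was tested on simulated data. Of the gene identifiers, 99.1% matched GENCODE v44. The 10 genes and the lists were chosen with earlier results of these data known and support nothing by themselves.

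Genes named beyond the 10 were MCM8, MCM9, GMNN and TIMP1, the 2 largest called changes of each list with any called gene of the opposite direction, overlapping or start-sharing genes, and the 5 genes with the most similar profile at a mean of at least 100. ATR, TIMELESS, LIG1, TFDP2, E2F2, CENPF, the neighbours and the marker genes fall outside that rule and were named after their values were seen. Some listed genes are not reported here by name but stay in the counts and sums of their lists. Alternatives were other scalings, pseudocounts, filters, tools, a replicate block and leaving out each library. Comparisons without a competent line were added after seeing the data. The promoter letters were shortened from 8 to 7, with 1 of 4 spellings dropped, after the windows were read.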

Additional observations from a re-analysis of the deposited data

Results flagged for a closer look

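The deficient lines differed from each other in all 10 helicase genes, where the change against WT was larger in KO 2 than in KO 1. The difference of the 2 changes, tested in limma as KO 2 against KO 1, was -0.88 for CDC45, -0.87 for MCM7, -0.77 for MCM3, -0.70 for MCM5, -0.62 for MCM2, -0.60 for GINS2, -0.49 for MCM6, -0.45 for MCM10, -0.43 for MCM4 and -0.34 for CDT1 on the log2 scale. Every KO 2 library lay below every KO 1 library for each of these genes. Each knockout is 1 clone, so the guide, the clone and the level of TIMP1 RNA cannot be told apart. The study reported a frame-shift mutation in both.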

How the results depend on the processing

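The 10 genes stayed lower in KO 1 against WT, KO 2 against WT and deficient against competent lines under all alternatives other than a minimum log2 fold change of 1, which left 1, 10 and 6 genes, and 1 in KO 1 against CRISPR Control, 0 in KO 2 against KO 1 and 0 in CRISPR Control against WT. The last count was 3, and 5 with equal library totals, TMM scaling or edgeR, and 2 to 6 when single libraries were left out. For KO 2 against KO 1 leaving out single libraries gave 9 to 10. Scaling to equal totals moved the median of all genes by up to 0.11 in log2 (KO 2 against CRISPR Control), and there the 10 genes ran from -1.70 to -0.65. CDC45 in KO 1 against CRISPR Control, never called, ran from -0.011 to 0.027 when single libraries were left out, below 0 without CRISPR Control replicate 1 and, at -0.0037, without KO 1 replicate 1. CDT1 minus GMNN ran from -0.41 to -0.25 when single libraries were left out and lost its call in 6 cases. The cause was not tested.

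The replicate numbers did not pair the libraries: deviations of libraries with the same number correlated at -0.13 to 0.16. With the replicate block, CRISPR Control against WT gave 4 genes, KO 1 against CRISPR Control 9 and the other comparisons 10, and CDT1 minus GMNN had a permutation p of 0.037. Of 2005 values, 1914 kept their direction and side of the threshold.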
